A study of Mus musculus with 6 samples.

Results

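Choroid plexus genes were followed in tissue of the substantia nigra (SN) from MitoPark mice and from littermate controls, called controls from here on. The group holds 9 genes of the choroid plexus epithelium, Ttr, Kl, Enpp2, Aqp1, Clic6, Slc4a5, Folr1, Prlr and Otx2, taken by symbol from the 24054 genes of the deposited count table. All 9 were listed. The genes were chosen by their known place in this epithelium and with the levels of these 6 mice already known, so their levels and the difference between groups are given as a description, without a test.

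MitoParks (Dat+/Cre: TFAM LoxP/LoxP by the study's methods, titled PD and listed as transgenic mice from C57BL/6 in the labels) lose Tfam, the gene of mitochondrial transcription factor A, in cells where Cre is driven from the dopamine transporter locus. Littermate controls are described in the methods as TFAM +/LoxP: Dat+/+ and in the labels as C57BL/6, so by the methods they also carried a floxed allele. The methods take such mice from litters of MitoParks or of the parental strain, so not every control need be a littermate. Both sexes were used in equal numbers by the methods, and the sex of single mice is not used here. There were 3 mice in each group, 16 to 17 weeks old by the series text, untreated, and polyadenylated RNA was sequenced from each. The labels give the tissue as brain and the study's methods give the dissected SN. Whether the mice of a group came from separate litters is not given in the sources used here, so the spread between mice is what the errors measure.

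The choroid plexus is a folded sheet of epithelium that hangs into the brain ventricles and secretes the cerebrospinal fluid. Its cells sit on leaky capillaries, seal the fluid space with tight junctions, move ions, bicarbonate and water towards the ventricle and release carrier proteins and hormones into it. The SN is midbrain tissue and is not itself lined by this epithelium. Several genes used to mark the epithelium are also expressed elsewhere in the brain, among them Enpp2 in oligodendrocytes.

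Libraries held between 8140777 and 10528602 expected counts in total. Levels are given as CPM (counts scaled to a common library size) after edgeR's TMM scaling, and 3 counts corresponded to between 0.285 and 0.366 CPM. Genes of dopaminergic neurons were read in every mouse, with Pitx3 alone at 0 counts in MitoPark 1, and a list of 8 of them summed to 196 CPM in MitoPark 1 and to between 335 and 1066 CPM in the other mice. Control 3 was the highest mouse for all 8 dopaminergic genes and for all 5 genes of an oligodendrocyte list, where 17.7% of all tested genes were highest in that mouse.

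Promoter sequence is shown for Otx2, because its product is itself a DNA-binding factor of this epithelium and binds a short core, TAATCC. Windows from RefSeq (GRCm38.p6), each reaching from 250 bases before to 50 bases after a start, were held for 5 of the 9 members (Kl, Aqp1, Slc4a5, Prlr and Otx2) in 10 windows. The core, read on both strands, was found in 1 of these 10 windows, where 7.06% of all 32851 windows hold it. That window belongs to 1 of the 4 starts of Otx2, at chr14:48665060-48665359 on the minus strand, and the match (capitals) is the reverse complement of the core and begins 211 bases before the start.

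Otx2: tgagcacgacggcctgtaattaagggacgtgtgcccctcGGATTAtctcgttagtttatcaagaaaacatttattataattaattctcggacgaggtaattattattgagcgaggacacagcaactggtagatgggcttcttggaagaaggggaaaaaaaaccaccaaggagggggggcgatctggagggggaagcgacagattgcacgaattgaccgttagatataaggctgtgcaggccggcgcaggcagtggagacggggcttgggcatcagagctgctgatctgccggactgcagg

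Among the genes most like Ttr described below, 5 of 10 had a window and 1 window held the core, that of Fam216b at chr14:78088958-78089257 on the minus strand, beginning 239 bases before the start. It is shown because Fam216b was among the 10 genes with the highest r with Ttr. Fam216b averaged 0.945 CPM in MitoParks and entered the fit only through control 2, at 3.51 CPM. Its peak in that mouse was thus set by the filter, and nothing is read from its likeness to Ttr.

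Fam216b: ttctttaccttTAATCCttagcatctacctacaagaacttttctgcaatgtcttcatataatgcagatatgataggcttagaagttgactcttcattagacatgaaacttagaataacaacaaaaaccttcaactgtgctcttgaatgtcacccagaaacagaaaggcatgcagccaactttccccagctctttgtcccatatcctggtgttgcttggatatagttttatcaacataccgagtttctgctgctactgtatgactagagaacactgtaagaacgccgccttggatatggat

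These matches are letters in a window, and binding was not measured. The counts are per gene, so the start used by Otx2 or Prlr in these mice is not known.

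Among the secreted products, Ttr varied most. Ttr encodes transthyretin, the carrier of thyroid hormone and of retinol-binding protein, and is the most abundant product of the choroid plexus. It had 65, 1384 and 39 counts in controls 1, 2 and 3 against 7, 227 and 111 counts in MitoParks 1, 2 and 3. As levels, these were 7.24, 131 and 3.81 CPM in the controls against 0.853, 22.9 and 12.6 CPM in the MitoParks. Control 2 stood 5.73-fold above the next mouse, MitoPark 2, and 154-fold above the lowest, MitoPark 1. The groups overlapped, since controls 1 and 3 lay below MitoParks 2 and 3.

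The mean of Ttr was 47.5 ± 72.7 CPM in controls (SD, n = 3) against 12.1 ± 11.1 CPM in MitoParks (SD, n = 3), with an SD larger than the mean in the former. Control 2 held 92.2% of the summed level of its group, and controls 1 and 3 alone averaged 5.53 CPM. With all 6 mice the log2 fold change was -1.95 (standard error 1.20) and without control 2 it was 1.16 (standard error 0.90). The direction of Ttr between the groups thus rested on 1 mouse. Without control 3, it was -2.49 (standard error 0.92).

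Kl encodes klotho, a membrane protein that is also shed into blood and cerebrospinal fluid and serves as a co-receptor for FGF23. Its levels were 14.5, 15.7 and 3.32 CPM in controls 1, 2 and 3 against 12.2, 12.5 and 5.67 CPM in MitoParks 1, 2 and 3. Mouse 3 of each group was the lowest, and MitoPark 1, where Ttr had 7 counts, was level with MitoPark 2 in Kl. Ttr counts per Kl count therefore ran from 0.0700 in MitoPark 1 to 8.39 in control 2. The log2 fold change of Kl was -0.14 (standard error 0.49), and the groups overlapped.

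Enpp2 encodes autotaxin, the secreted enzyme that makes lysophosphatidic acid, and had the most counts of the group. It was at 246, 349.8 and 529 CPM in controls 1, 2 and 3 against 239.8, 387 and 342 CPM in MitoParks 1, 2 and 3. The highest mouse was control 3 and the lowest were MitoPark 1 and control 1, an order unlike that of Ttr. The 5 oligodendrocyte genes, led by Mbp, Mobp and Cnp, summed to 3964, 6075 and 10983 CPM in the controls against 5863, 7294 and 9591 CPM in the MitoParks, again with control 3 highest and control 1 lowest. The part of oligodendrocytes in the level of Enpp2 was not tested. Its log2 fold change was -0.22 (standard error 0.26).

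Of the genes for water, chloride and bicarbonate transport, Aqp1 and Slc4a5 were near the limit of these libraries. Aqp1, the water channel of the apical membrane, had 3, 9 and 2 counts in the controls against 1, 5 and 4 in the MitoParks. Slc4a5, a sodium bicarbonate cotransporter, had 2, 9 and 8 counts in the controls against 0, 8 and 7 in the MitoParks. The count of 0 in MitoPark 1 allows a level of up to 0.366 CPM. Both genes had their highest value in control 2 and their lowest in MitoPark 1. At 9 counts in control 2 against 8 in control 3 and in MitoPark 2, the highest mouse of Slc4a5 lies within counting error. Aqp1, at 1 to 9 counts, also rests on few counts, so no order shared with Ttr is read from either gene. Their mean level did not reach 1 CPM in either group, so neither entered the fit.

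Clic6, a chloride intracellular channel gene, was at 21.9, 30.6 and 12.6 CPM in controls 1, 2 and 3 against 22.7, 18.6 and 24.1 CPM in MitoParks 1, 2 and 3. Control 2 was again the highest, although by 1.27-fold over the next mouse, and control 3 the lowest. The group means, 21.7 ± 8.99 CPM in controls (SD, n = 3) against 21.8 ± 2.87 CPM in MitoParks (SD, n = 3), gave a log2 fold change of 0.00 (standard error 0.27).

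Folr1 encodes the folate receptor that carries folate from blood into the cerebrospinal fluid. It had 2, 16 and 6 counts in the controls against 3, 4 and 5 in the MitoParks, so that control 2, at 1.52 CPM, was 2.59-fold above the next mouse. The other 5 mice lay between 0.223 and 0.586 CPM, and the gene was not fitted. Where Folr1 had more than 3 counts, Ttr counts per Folr1 count were 86.5 in control 2, 6.50 in control 3, 56.8 in MitoPark 2 and 22.2 in MitoPark 3. The ratio of Ttr to Folr1 was thus not constant across mice, although it rests on few Folr1 counts.

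Prlr, the prolactin receptor gene, was at 66.4, 56.5 and 31.9 CPM in controls 1, 2 and 3 against 57.4, 55.1 and 47.2 CPM in MitoParks 1, 2 and 3. Its highest mouse was control 1 and its lowest control 3, and MitoPark 1 was among the higher mice. The log2 fold change was 0.05 (standard error 0.23). In MitoPark 1, where Ttr was at 0.853 CPM, Prlr, Clic6 and Kl were at 57.4, 22.7 and 12.2 CPM. In control 2, where Ttr was at 131 CPM, they were at 56.5, 30.6 and 15.7 CPM. How much of the Prlr, Clic6 and Kl signal came from this epithelium was not tested.

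Otx2, a homeobox transcription factor that specifies the choroid plexus and also patterns the midbrain, was at 2.45, 7.79 and 7.14 CPM in controls 1, 2 and 3 against 3.05, 8.59 and 6.80 CPM in MitoParks 1, 2 and 3. Mouse 1 of each group was low and the other 4 mice lay close together. The log2 fold change was 0.09 (standard error 0.45).

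**Figure D1:**
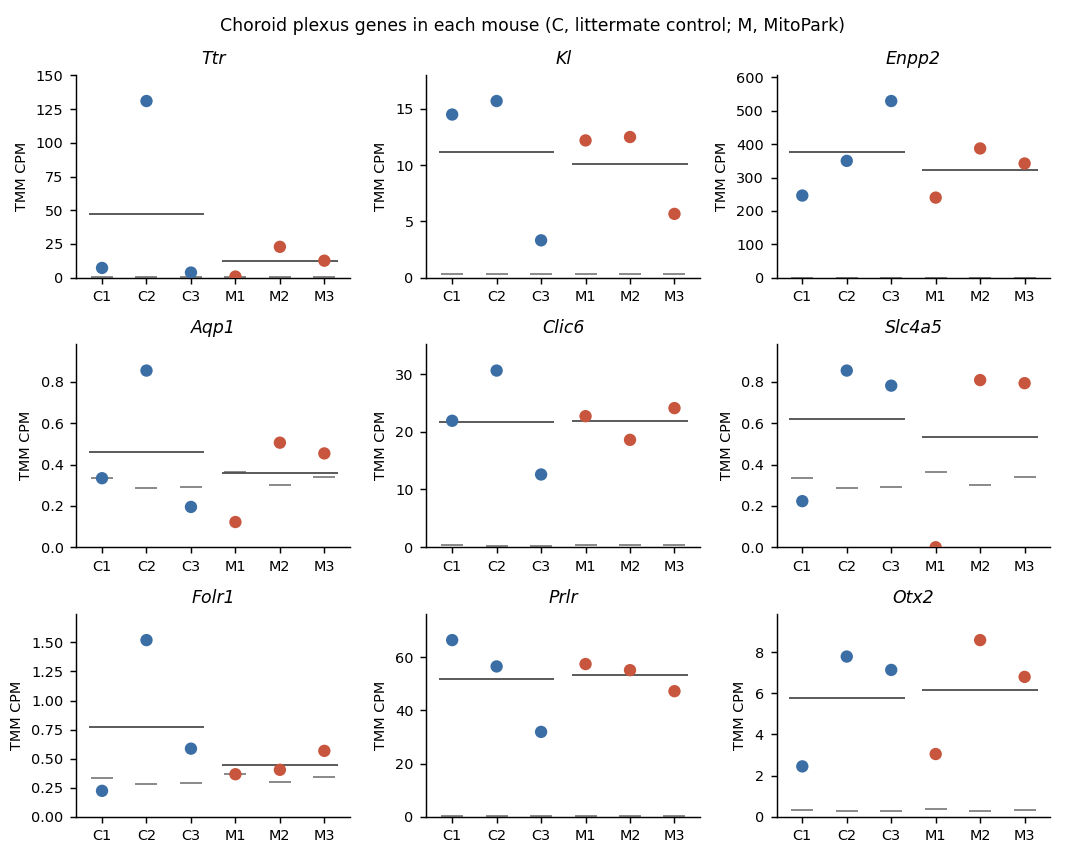
TMM-normalized CPM (vertical axes, linear from 0) of the 9 choroid plexus genes in controls (blue, C1 to C3) and MitoParks (red, M1 to M3). Points are mice, dark lines group means and grey ticks the level of 3 counts in that mouse. Control 2 is the highest mouse for 6 of the 9 genes, by 5.73-fold for Ttr and by 1.06-fold for Slc4a5. It is the highest for 3 of the 6 members that were fitted, beside 14.0% of all tested genes. The genes were chosen with these levels known, so nothing is read from these counts.

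Levels of different genes were compared per kilobase of the longest GENCODE M21 transcript. On that scale Ttr was level with Enpp2 in control 2, at 111 against 113 CPM per kb. In control 1 it stood at 6.10 CPM per kb, next to Prlr at 6.70 and Clic6 at 5.84. In MitoPark 1 it stood at 0.719 CPM per kb and was below Enpp2, Clic6, Prlr, Kl and Otx2. Enpp2 was the highest member per length in all 6 mice, at 77.5 to 171 CPM per kb, and Aqp1, Folr1 and Slc4a5 were the lowest 3 in each of them. Neighbouring members in this order, such as Clic6 and Prlr in MitoParks 1 and 2, lay within the spread between mice.

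Of the 9 members, 6 had a mean above 1 CPM in at least 1 group and were fitted with the 14568 tested genes by edgeR's quasi-likelihood model. Of these 6, 3 had a log2 fold change above 0 and 3 below, with a median of -0.07, beside a median of -0.005 over all tested genes. No member passed the cutoffs used for DEGs, a fold change above 1.5 together with p below 0.05 before adjustment, which 0.577% of all tested genes passed. The groups overlapped for all 9 members, and did not overlap for 4.71% of the tested genes. Since the members were chosen with this comparison known, nothing is read from these counts. Of all tested genes, 161 had p below 0.05 before adjustment and 0 had it afterwards (edgeR quasi-likelihood, Benjamini-Hochberg), and DESeq2 and limma-voom also gave 0 after adjustment. In bulk tissue, the number of epithelial cells, their RNA per cell and the amount of ventricular tissue taken cannot be told apart.

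**Figure D2:**
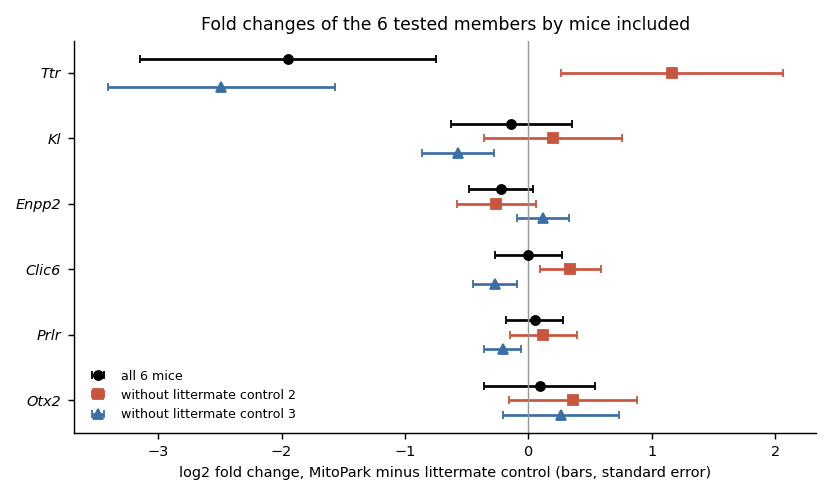
Log2 fold change of MitoParks over controls (horizontal axis, bars are standard errors) for the 6 members that were fitted, with all mice, without control 2 and without control 3. Ttr goes from -1.95 to 1.16 when control 2 is left out, while the other 5 genes stay between -0.57 and 0.36.

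The members were set beside 22 further genes of the choroid plexus epithelium, a list also chosen with earlier results of these data known. All 22 were listed, 15 were fitted, and 4 (Steap1, Slco1a5, Oca2 and Krt8) were at 0 counts in at least 1 mouse. Their summed level was 89.2, 106 and 75.3 CPM in controls 1, 2 and 3 against 78.0, 77.5 and 80.5 CPM in MitoParks 1, 2 and 3. Most of each sum was Ace, at 38.1 to 49.9 CPM, and Col9a3, at 12.0 to 19.4 CPM, so the sums say little of the other genes. Of the 15, 3 (Cldn2, 1500015O10Rik and Calml4) entered the fit only through control 2, so that their peak in that mouse was set by the filter. Of the 12 genes that passed the filter without it, control 2 was the highest mouse for 9, where it was the highest for 13.8% of all genes fitted without that mouse. Of the 15, 13 had a log2 fold change below 0 and 2 above, with a median of -0.64, and the median was -0.20 over the 12 still fitted without control 2.

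The 6 genes with the highest levels on that list differed in how they lay beside Ttr. Ace, which encodes angiotensin-converting enzyme, lay between 38.1 and 49.9 CPM in all mice, and Col9a3, a collagen gene, lay between 12.0 and 19.4 CPM. Abca4 and Trpv4 ranged from 1.27 to 3.24 CPM and from 1.11 to 2.75 CPM. Over the 6 mice, Pearson's r with Ttr on the log2 scale lay between -0.16 and 0.09 for these 4 genes. Car12, a carbonic anhydrase gene, was at 8.55 CPM in control 2 and between 3.34 and 4.90 CPM elsewhere, and Lbp was at 5.32 CPM there and between 1.27 and 3.56 CPM elsewhere. Both thus peaked in control 2 as Ttr did, with r of 0.65 and 0.70. These 6 genes did not pass the cutoffs for DEGs.

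Calml4, a calmodulin-like gene, was the only one of the 15 genes past them. It had 9, 42 and 7 counts in controls 1, 2 and 3 against 1, 7 and 6 in MitoParks 1, 2 and 3. Control 2 was 3.98-fold above the next mouse, and the groups overlapped. Its group means were 1.89 CPM in controls against 0.503 CPM in MitoParks, and without control 2 its mean fell under the filter in both groups. Because it was admitted only through the group where it was high, its log2 fold change of -1.87 (standard error 0.78) is a description and no p is given. It was not past the cutoffs by limma-voom, nor without MitoPark 1, 2 or 3 in turn.

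Ependymal cells line the ventricles with beating cilia and border the choroid plexus. All 13 genes of an ependymal list, likewise chosen with earlier results known, were fitted, 12 of them also without control 2. Of these 12, control 2 was the highest mouse for 10, again against 13.8% of all genes fitted without it. Their summed level was 82.6, 128 and 50.5 CPM in controls 1, 2 and 3 against 68.9, 82.6 and 82.0 CPM in MitoParks 1, 2 and 3. Foxj1, the transcription factor of motile cilia, was at 12.6, 21.4 and 13.2 CPM in the controls against 8.90, 13.5 and 16.4 CPM in the MitoParks. Rarres2 was at 14.0 CPM in control 2 and between 5.08 and 8.53 CPM elsewhere, whereas Ccdc39 was at 29.1 CPM in control 1 and at 28.4 CPM in control 2. Control 3 was the lowest mouse for 11 of the 13 genes, where it was the lowest for 16.7% of all tested genes. Of the 13 genes 2 were higher and 11 lower in MitoParks, none passed the cutoffs, and their median log2 fold change was -0.19 with all mice and 0.33 without control 2, when 12 genes were still fitted.

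Fibroblasts of the meninges and vessels had another order of mice in their summed level. Their 10 genes, led by Igf2, Col1a2 and Dcn, summed to 156, 102 and 138 CPM in controls 1, 2 and 3 against 97.0, 162 and 180.4 CPM in MitoParks 1, 2 and 3. Control 2 was the highest mouse for 0 of the 10, beside 14.0% of all tested genes. It was likewise the highest for 0 of 6 endothelial genes, which summed to between 137 CPM in that mouse and 225 CPM in control 3. Plvap, an endothelial gene of the leaky capillaries that feed the choroid plexus, lay between 7.57 and 8.90 CPM in all 6 mice. The median log2 fold change was 0.05 for the fibroblast and 0.00 for the endothelial genes, and no gene of these lists passed the cutoffs.

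**Figure D3:**
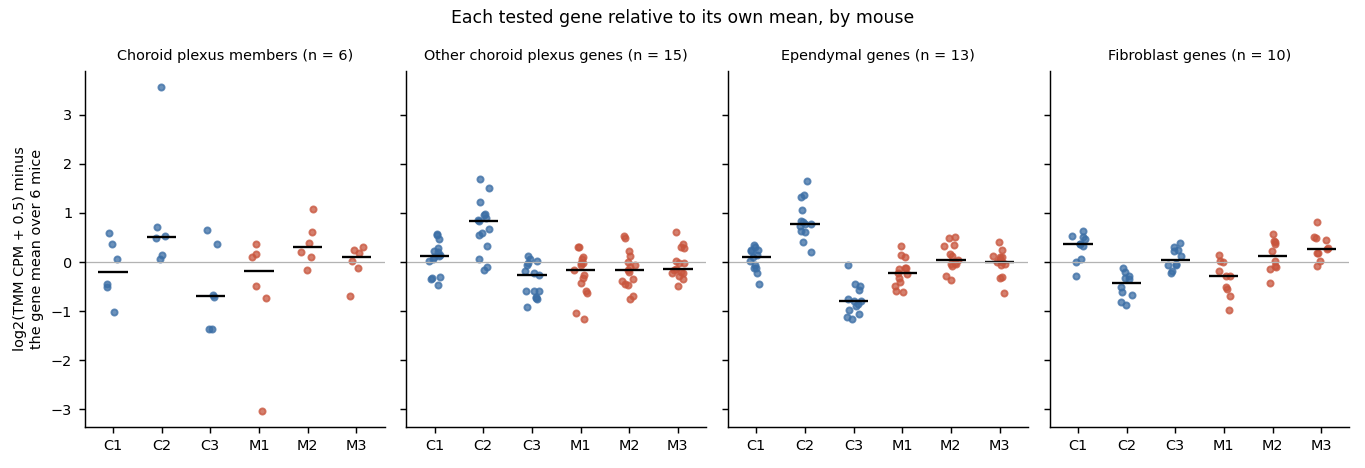
Level of each tested gene in each mouse relative to the gene's mean over the 6 mice (vertical axis, log2 of TMM CPM + 0.5), for 6 choroid plexus members, 15 other choroid plexus genes, 13 ependymal genes and 10 fibroblast genes. Points are genes, black lines medians, blue controls and red MitoParks. Among genes that passed the filter without control 2, it is the highest mouse for 9 of 12 and 10 of 12 in the middle panels. It is the highest for 0 of the 10 fibroblast genes and for 13.8% of all genes fitted without it. In the middle panels 3 and 1 further genes entered only through control 2.

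Lists of neighbouring brain regions were set beside these. Control 2 was the highest mouse for 2 of 8 genes of striatal projection neurons, 1 of 3 fitted hippocampal genes and 0 of 5 thalamic genes. It was the highest for 14.0% of all tested genes, so nothing is read from counts over so few genes. The striatal list, led by Penk, Tac1 and Rgs9, summed to between 243 and 349 CPM with control 2 highest, and the thalamic list, led by Tcf7l2, Prkcd and Rgs16, summed to between 69.4 and 198 CPM with that mouse lowest. The hippocampal list, led by Prox1, Fibcd1 and Neurod6, summed to between 27.7 and 38.1 CPM, also with control 2 lowest. No gene of these lists passed the cutoffs, whereas Slc6a3 and Foxa1 of the 8 dopaminergic genes did, both lower in MitoParks (edgeR's quasi-likelihood model, adjusted p = 0.999 for each). Slc6a3 is the dopamine transporter gene, whose locus carries Cre in MitoParks alone. Its lower level therefore cannot be told apart from an effect of that allele. The sources used here do not record how much ventricular tissue was taken with each SN. Most ependymal genes shared the peak of Ttr in control 2. Control 3 was the lowest mouse for 11 of the 13, as it was for the members Kl, Clic6 and Prlr. Ttr was lowest in MitoPark 1, at 0.853 CPM, followed by control 3 at 3.81 CPM. The r of the ependymal genes with Ttr ran from 0.43 to 0.92 over the 6 mice, and the part of carried-over ventricular tissue in the Ttr values was not tested.

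Over the 6 mice, the genes most like Ttr were sought among 2477 tested genes whose highest mouse was at least 2 times the lowest, by Pearson's r on log2(TMM CPM + 0.5). This likeness is a description, the mice being the same libraries with shared depth, and no p is given. The 10 closest were Dnaic1, Ccdc121, 1700026D08Rik, Celsr1, Fam216b, Smim3, Cldn2, Foxj1, Col4a4 and 1700016K19Rik, with r from 0.973 to 0.912. Control 2 was the highest mouse for all 10 and MitoPark 1 the lowest for 9 of them. These are also the highest and lowest mice of Ttr, so the search by r favoured this order and nothing is read from it. When the mice farthest from the median of Ttr, control 2 and MitoPark 1, were left out, r over the remaining 4 mice ranged from 0.362 for Foxj1 to 0.952 for 1700016K19Rik.

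Dnaic1, an intermediate chain gene of the dynein arms of motile cilia, was at 3.12, 5.98 and 2.25 CPM in controls 1, 2 and 3 against 1.71, 3.84 and 4.08 CPM in MitoParks 1, 2 and 3. Its highest mouse was 3.51-fold above its lowest, where that ratio was 154 for Ttr. Cldn2, the claudin of choroid plexus tight junctions had 4, 27 and 6 counts in the controls against 3, 10 and 6 in the MitoParks. It was 1 of the genes fitted only through control 2, as was Fam216b among the 10. So were 1500015O10Rik and Calml4, which ranked 12 and 13 with r of 0.91 each. F5 of the same epithelial list ranked 27 with r of 0.88. Celsr1, a planar polarity cadherin gene, was at 8.64 CPM in control 2 and 2.56 CPM in MitoPark 1. No member was among the 10. Otx2 came closest, with r = 0.61, followed by Clic6 at 0.50, Kl at 0.35, Enpp2 at 0.26 and Prlr at 0.20, each over 6 mice.

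**Figure D4:**
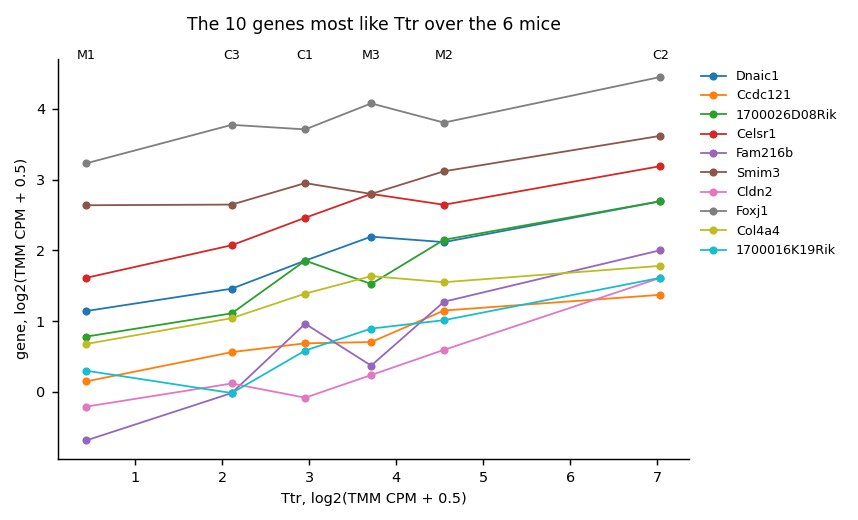
The 10 genes most like Ttr, each plotted by mouse against Ttr on log2(TMM CPM + 0.5) axes, with the mice named along the top (C, control; M, MitoPark). All 10 are highest in control 2, as the search by r with Ttr favours, over a narrower range than Ttr.

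Genes whose products work with the members were fitted as a list of 19, none of which passed the cutoffs, with 8 higher and 11 lower in MitoParks and a median log2 fold change of -0.02. The most abundant were Ppap2b, the older symbol of Plpp3 and a lipid phosphatase gene that acts on the product of Enpp2, at 251 CPM over the 6 mice, and the fibroblast growth factor receptor genes Fgfr3 and Fgfr1, at 172 and 101 CPM. Rbp4 and Stra6, partners of transthyretin in retinol transport that were named after their values were seen, lay between 1.95 and 3.91 CPM and between 1.62 and 3.32 CPM. Prl, the hormone gene read by Prlr and likewise named after its values were seen, ranged from 0.809 CPM in MitoPark 2 to 65.2 CPM in MitoPark 1, whereas the most Prlr was in control 1. A list of 12 genes for ion transport in fluid secretion, led by the sodium pump genes Atp1b1 and Atp1b2 and the carbonic anhydrase gene Car2, had 6 higher and 6 lower, a median log2 fold change of 0.03 and none past the cutoffs. Control 2 was the highest mouse for 0 of these 12 genes and for 1 of the 19 partners, beside 14.0% of all tested genes.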

How the data were processed

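Polyadenylated RNA from the SN of 3 MitoParks and 3 littermate controls was sequenced from stranded libraries. The authors mapped reads to UCSC transcripts with Bowtie2 2.1.0, estimated gene levels with RSEM 1.2.15 and deposited expected counts without normalization for 24054 genes. The submitters' processing notes name a human build for these mouse samples, so no coordinate is taken from the table. Of the columns, 0 belonged to no mapped sample.

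Expected counts were rounded, genes were kept whose mean in either group exceeded 1 CPM, and edgeR 4.0.16 (R 4.3.3) fitted TMM-normalized counts with the group as the only term. Gene lists were matched by symbol or RefSeq synonym. From each of 2 lists, 1 gene was left out and is not reported here. On simulated data with 14568 genes, 98.0% of 200 genes changed by 1.5 on the log2 scale were called, with 236 unchanged genes called as well. The fit of the real data called 84 genes in all, so the simulation did not reproduce its spread. The simulated share therefore does not measure how often such a change would be called in these mice. The members and lists were chosen with earlier results of these data known. The text names all members, the 6 genes of the further choroid plexus list and the 3 of each other list with the highest mean CPM (by count alone for some lists), listed genes past the cutoffs and the 10 genes most like Ttr. Alternatives were RLE and total count scaling, no filter, DESeq2 1.42.0, limma-voom (limma 3.58.1), a block for the replicate number, and leaving out single mice. Within groups, no pair of mice agreed within sampling noise (lowest chi-square per degree of freedom, 9.68). Counting limits cover counting error only.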

Additional observations from a re-analysis of the deposited data

How the results depend on the processing

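The number of DEGs over all genes, 84, was 176 without the filter on low counts and ranged from 62 to 219 with each mouse left out in turn, being 133 without littermate control 1, 219 without littermate control 3 and 217 without MitoPark 2. Ttr alone of the members passed the cutoffs in any of these fits, in the fit that left out littermate control 3, at -2.49 on the log2 scale. In that fit 219 of all 14609 tested genes passed them. The mouse left out was at 3.81 CPM for Ttr, while littermate control 2, at 131 CPM, was kept. Because the members were chosen with these levels known, nothing is read from the call of Ttr. The median log2 fold change of the 6 fitted members ranged from -0.27 to 0.27 with a mouse left out and from -0.07 to 0.08 under the other alternatives. That of the 15 other choroid plexus genes ranged from -0.85 to -0.20 with a mouse left out, the latter over the 12 genes fitted without littermate control 2, and from -0.64 to -0.45 otherwise. Once littermate control 3 was left out, 5 of these 15 genes and 4 of the 13 ependymal genes passed the cutoffs, against 219 of all 14609 genes tested then. Calml4 and Tmem212 among them had entered the fit of all mice only through littermate control 2. Littermate control 3 was the lowest mouse for 11 of the 13 ependymal genes, so leaving it out raised their control mean. Nothing is read from these counts. The log2 fold change of Ttr ranged from -2.79 to 1.16 with a mouse left out and was -1.21 under limma-voom. The alternatives for Calml4, Slc6a3 and Foxa1, and the counts over genes that pass the filter without littermate control 2, were added after the data were seen. Foxa1 was not called in 5 of 12 and Calml4 in 4 of 11 alternatives, while Slc6a3, the locus that carries Cre in MitoParks, was called in all 12. The log2 fold change of Slc6a3 was -2.30 with all mice and -0.97 without littermate control 3, its highest mouse. Same-numbered mice deviated from their group means with correlations of 0.352, -0.07 and 0.277, so the numbers do not pair all mice. With the replicate number as a block, 126 genes were called, and the log2 fold change of Ttr was -1.26.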
